A study of Rattus norvegicus with 18 samples.

Results

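The control arm of an inducible MEF2 experiment in cultured rat hippocampal neurons is described here: 9 of the 18 Affymetrix expression arrays of the series, chosen by their labels alone. The neurons received a lentivirus on day 3 in culture, and 4-hydroxytamoxifen (4OHT) was given on day 10 for 0, 1 or 2.5 h, with 3 arrays at each time, labelled as biological replicates 1, 2 and 3. The control virus carried MEF2deltaDBD-VP16-ER, a fusion that lacks the DNA-binding domain of MEF2 but keeps the VP16 activation domain and the estrogen receptor domain that binds 4OHT. The other 9 arrays, at the same times, came from neurons with MEF2-VP16-ER, the fusion with its DNA-binding domain. No promoter driving the fusions is given in the sources used here. All later control arrays had received 4OHT, so that time in culture, handling, the ligand and the ligand-bound control fusion cannot be told apart.

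MEF2 proteins are transcription factors that in neurons respond to calcium entry and control genes of synapse number and plasticity. A fusion to an estrogen receptor ligand-binding domain is held inactive until 4OHT, the active metabolite of tamoxifen, binds it. Some kinds of gene are known for moving within hours when neurons are handled or stimulated. They include immediate early genes such as Fos and Egr1, which respond within minutes to calcium, growth factors or a change of medium, their feedback inhibitors such as Dusp6, and metabolic genes under SREBP, a transcription factor released when sterol in the endoplasmic reticulum is low. Tamoxifen metabolites are also known to bind enzymes of late cholesterol synthesis.

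Levels below are intensities as the authors deposited them, and a change is a difference of log2(intensity + 16), on which dim genes show less than their full change. All 15 neuron markers measured were above the array median, with Stmn2 highest at a mean intensity of 17395. Astrocyte markers were also strong, with a median of 4771 over 12 genes and Slc1a3 highest at 10760, whereas microglia markers had a median of 119 over 15 genes and endothelial and blood markers one of 63.7 over 11 genes. Defining markers of both neurons and astrocytes were thus abundant in these cultures. In whole-culture RNA, fewer cells of a type and less RNA per cell cannot be told apart.

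Replicate number separated the control arrays far more than time. Of the variance over all probe sets, 62.8% went with replicate number, 12.2% with time and 25% with neither. These are raw shares of the sums of squares, not corrected for degrees of freedom, and noise alone would also give time a share. By limma's F test with Benjamini-Hochberg adjustment, 4804 of 31042 probe sets (15.5%) differed between replicate numbers, and 0 differed between times (1338 at unadjusted p under 0.05). That count of 1338 is below what the threshold of 0.05 alone would give if nothing had changed. Replicate 3 stood apart: 4631 probe sets differed between replicates 3 and 1 and 3943 between replicates 3 and 2, against 284 between replicates 2 and 1. The contrasts over time were therefore fitted within replicate number, each later array being set against the 0 h array of the same number.

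Among the gene lists, cell cycle and sterol genes differed most in replicate 3. Of 25 cell cycle genes, 24 were called higher in replicate 3 than in the mean of replicates 1 and 2 (median difference 0.71), as were 18 of 20 genes of cholesterol synthesis and other SREBP targets (median 0.69) and 8 of 12 oligodendrocyte lineage markers (median 0.40). Over all 14217 named genes, 11.8% were called higher, 10.2% were called lower, and the median difference was 0.00. Of 27 immediate early transcription factor genes, 14 were called lower in replicate 3 (median -0.31), as were 13 of 28 genes of the unfolded protein and amino acid stress response (median -0.17). Of 43 oxidative phosphorylation genes 20 were called higher, and of 31 splicing genes 14. Astrocyte markers were split, with 4 of 12 called higher and 2 lower. Among single genes picked after their values were seen, Gpnmb, a membrane glycoprotein of phagocytes and glia, lay at -3.62 ± 0.13 (SE) and Gfap, the astrocyte filament protein, at -1.26 ± 0.05, while Bcas1, a gene of the oligodendrocyte lineage, lay at 2.21 ± 0.10. The 3'/5' signal ratio of the actin control probe sets, a measure of RNA integrity, was also lowest in replicate 3, at 1.84 to 2.34, against 2.47 to 2.66 in replicate 1 and 2.51 to 2.61 in replicate 2. Its part in these differences was not tested. Within replicates this ratio also moved with time: it was 2.53, 2.61 and 2.34 at 2.5 h, against 2.47, 2.51 and 2.08 at 0 h, in replicates 1, 2 and 3, higher in each pair. Without the pairing the times overlapped (exact two-sided permutation p = 0.5, where 0.1 is the smallest that 3 against 3 arrays allow). At 1 h it was 2.66, 2.53 and 1.84, higher than at 0 h in replicates 1 and 2 and lower in replicate 3. Its part in the changes at 2.5 h below was not tested. The Gapdh ratio was 1.11, 1.10 and 1.08 at 2.5 h, against 1.11, 1.10 and 1.07 at 0 h. The mean log2 level of the spike-in controls was 11.00, 11.12 and 11.02 at 0 h. It was 11.13, 11.29 and 11.16 at 1 h (exact two-sided permutation p = 0.1 against 0 h), and 11.08, 10.86 and 11.20 at 2.5 h. The part of the spike-in shift in the changes at 1 h was not tested either.

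**Figure D1:**
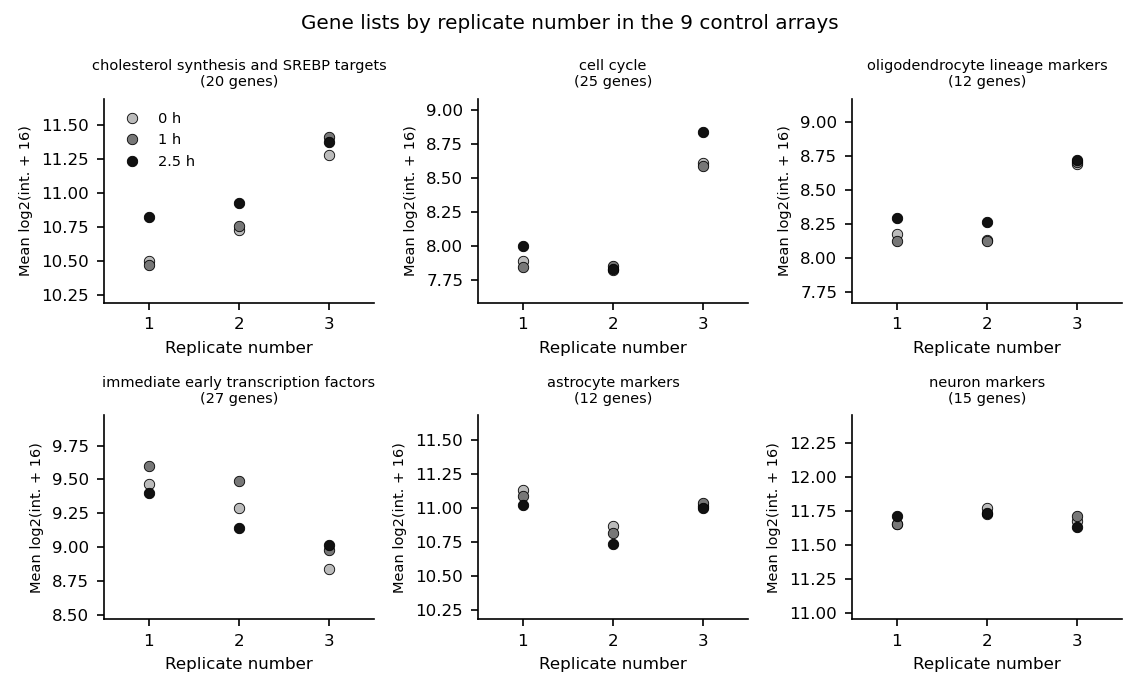
Mean log2(intensity + 16) of 6 gene lists (vertical axis, each panel spanning 1.5 log2 units) by replicate number (horizontal axis) in the 9 control arrays, with 1 point per array shaded by hours of 4OHT. The 3 arrays of replicate 3 lie above all others for sterol synthesis, cell cycle and oligodendrocyte genes and below all others for immediate early genes, while neuron markers lie level.

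Against this background the first question was whether any gene drifted over the time course when the fusion could not bind DNA. In the fit within replicate number, limma called 0 of 31042 probe sets (0%) at 2.5 h against 0 h, 0 (0%) at 1 h against 0 h and 0 (0%) at 2.5 h against 1 h. With no adjustment, p was under 0.05 for 1431 probe sets at 2.5 h (597 higher, 834 lower), 1210 at 1 h (576 higher, 634 lower) and 1452 for 2.5 h against 1 h (508 higher, 944 lower). Each of these totals is below what a threshold of 0.05 alone would give over 31042 probe sets if nothing had changed. The comparison is of both sides together, not of either side alone. The smallest adjusted p values were 0.0883, 0.999 and 0.250. Without the replicate block the counts were also 0, 0 and 0 (487, 550 and 439 unadjusted). With all 18 arrays in 1 fit, which shares the estimate of the spread, 1 probe set was called at 2.5 h, that of Hs3st1, 0 at 1 h (1365 unadjusted) and 3 for 2.5 h against 1 h. Without replicate 3 the control fit called 1 probe set at 2.5 h, that of Mgp, and 0 at 1 h.

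Most probe sets were measured tightly enough to bound the drift of their values on this scale. All probe sets are counted here without detection calls. They include dim ones, which show less than their full change, so the shares below do not bound the drift of expressed genes alone. The median SE of a change was 0.07 log2 units and the median half-width of a 95% interval 0.15. That interval, taken for each probe set on its own, lay wholly within 0.5 log2 units of no change for 30671 of 31042 probe sets at 2.5 h (98.8%) and for 30859 at 1 h (99.4%). It lay within 1 log2 unit for 31033 and 31039. The middle 98% of all changes ran from -0.24 to 0.20 at 2.5 h and from -0.19 to 0.20 at 1 h. Only 19 probe sets at 2.5 h and 4 at 1 h had an estimated change over 0.5 in size, and 1 at each time over 1. A p that misses the threshold does not show that a gene was unchanged, and the values below describe the genes with the smallest p in each direction and the 2 members with the smallest p of each gene list. The changes at 1 h and at 2.5 h share the 0 h arrays.

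At 1 h the genes furthest from 0 h were immediate early genes. The bright probe set of Fos, a subunit of the AP-1 transcription factor, had intensities of 1502, 818 and 186 at 0 h, 2232, 1803 and 700.0 at 1 h, and 1209, 563 and 565 at 2.5 h, in replicates 1, 2 and 3. It was higher at 1 h than at 0 h in each replicate, although the times overlapped across replicates, and at 2.5 h it was above 0 h in replicate 3 alone. Its change at 1 h was 1.17 ± 0.32 (SE, 95% interval 0.46 to 1.88, limma adjusted p = 0.999), with 0.57, 1.13 and 1.83 in the 3 pairs. A dim probe set of Fos, at 181 to 249 over the 9 arrays, lay at -0.01 ± 0.11. Without replicate 3 the change of the bright probe set was 0.85.

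Fosb, the gene of a close relative of Fos, read 128, 100.4 and 87.4 at 0 h, 279, 263 and 100.3 at 1 h, and 167, 103 and 119.5 at 2.5 h. Its 1 h change was 0.82 ± 0.21 (limma adjusted p = 0.999), and 1.15 without replicate 3, whose pair moved least. Of the 27 immediate early transcription factor genes measured, 21 were positive at 1 h, with a median of 0.12 against 0.01 over all 14217 genes, of which 56.7% were positive. The list median was 0.09, 0.12 and 0.11 in the pairs of replicates 1, 2 and 3, and 0.09 without replicate 3. At unadjusted p under 0.05, 7 members were higher (background 1.99% of genes) and 0 were lower (background 1.67%). In 3 of 3 pairs, 13 were higher (background 15.8%) and 0 were lower (background 10.8%).

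Besides Fos and Fosb, the 7 were Atf3 (0.40), a stress-induced factor, the zinc finger genes Egr2 (0.31) and Egr1 (0.25), and the AP-1 genes Junb (0.30) and Jun (0.17). These members include the calcium- and growth-factor-responsive genes best known from stimulated neurons. Nr4a1 lay at 0.15 ± 0.11, and Arc, whose product removes glutamate receptors from synapses, at 0.09 ± 0.08. At 2.5 h against 1 h, 23 of the 27 were negative (median -0.13, against -0.01 over all genes), and 9 were lower at unadjusted p under 0.05 (background 3.06%). The list median at 2.5 h against 0 h was 0.04, made of -0.10 and -0.14 in replicates 1 and 2 and 0.16 in replicate 3. For that contrast 2 members were higher (background 2.46%) and 5 lower (background 2.27%) at unadjusted p under 0.05. In 3 of 3 pairs, 4 were higher (background 11.0%) and 6 were lower (background 11.2%).

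**Figure D2:**
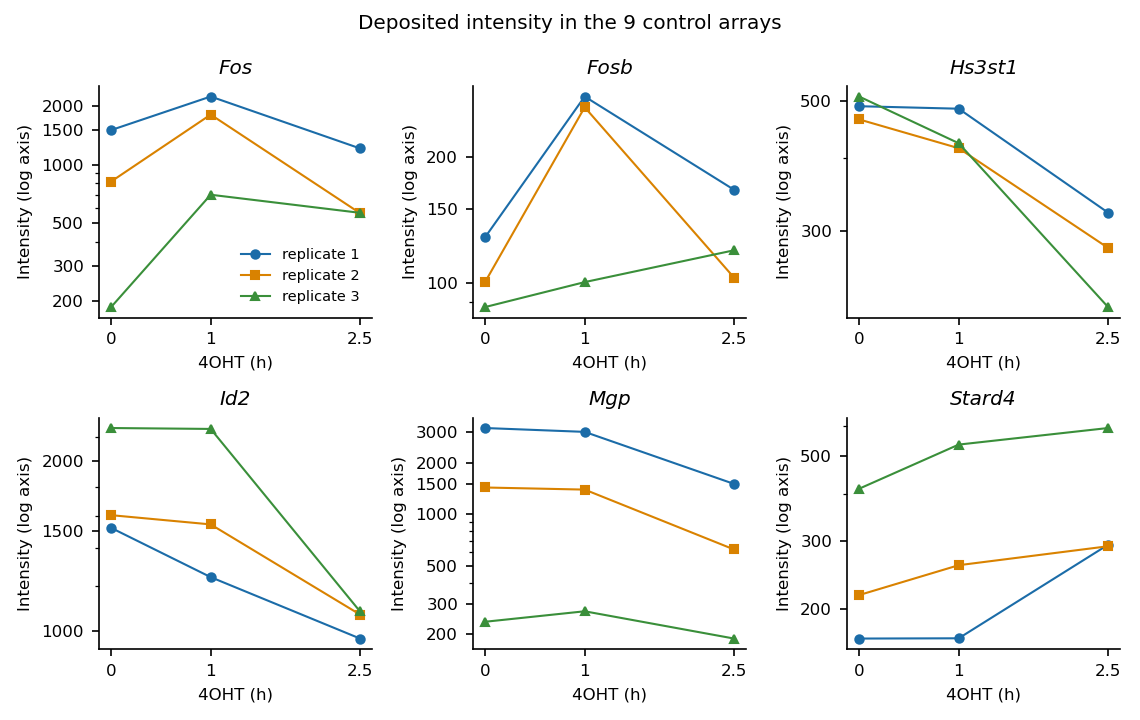
Deposited intensity (vertical axis, log scale, differing between panels) of 6 genes in the 9 control arrays against hours of 4OHT (horizontal axis), with 1 line per replicate number. Fos and Fosb peak at 1 h in replicates 1 and 2, Hs3st1, Id2 and Mgp are lowest at 2.5 h in every replicate, and Stard4 is highest at 2.5 h in every replicate.

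Other genes with small p at 1 h were scattered over functions. Slc16a6, a member of the monocarboxylate transporter family, had the smallest p among named genes: it read 175, 132 and 169 at 0 h, 239, 216 and 224 at 1 h, and 232, 181 and 216 at 2.5 h. The 1 h arrays did not overlap with the 0 h arrays (0.48 ± 0.07, limma adjusted p = 0.999), but its other probe set lay at 0.09 ± 0.07. Ccn1, an immediate early gene of a secreted matrix protein, was dim and read 119.6, 116 and 96.2 at 1 h, against 85.0, 67.1 and 75.4 at 0 h (0.46 ± 0.08).

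Arrdc3, an arrestin-related gene that FOXO factors are known to control, lay at 0.44 ± 0.07, and its second probe set at 0.31 ± 0.11. The sodium channel gene Scn9a lay at 0.40 ± 0.08, Enpp4 at 0.33 ± 0.07 and Cdkn2aip at 0.29 ± 0.06. Of 21 insulin and FOXO target genes, 4 were higher at unadjusted p under 0.05 (Arrdc3, Insr, Pik3ip1 and Foxo3) and 0 were lower. The background was 1.99% of genes higher and 1.67% lower, and the list median was 0.05. The lowest p on the negative side belonged to Thrsp, a regulator of fat synthesis, at -0.36 ± 0.06 and intensities under 100, and its other probe sets lay at -0.16 ± 0.08 and -0.12 ± 0.11. Abhd1 (-0.29), the AMP kinase subunit gene Prkag2 (-0.32), Ccz1 (-0.27), the signalling adaptor gene Traf6 (-0.26) and the neuronal transcription factor gene Cux2 (-0.24) followed. For these 5 genes other probe sets lay nearer 0, such as the brightest of Prkag2 (0.07 ± 0.06) and of Ccz1 (0.03 ± 0.06). Hes1, the main effector of Notch signalling, lay at -0.23 ± 0.07 at 1 h and at 0.00 ± 0.07 at 2.5 h.

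At 2.5 h the named gene closest to the threshold was Hs3st1, which encodes a heparan sulfate sulfotransferase. It read 490.0, 465 and 509 at 0 h, 485, 416 and 424 at 1 h, and 323, 281 and 223 at 2.5 h. The 3 arrays at 2.5 h lay below all 6 earlier ones, and the change of -0.80 ± 0.10 (95% interval -1.02 to -0.59) had a limma adjusted p of 0.145. With all 18 arrays in 1 fit the same change passed (limma adjusted p = 0.0130), and without replicate 3 it was -0.64 (adjusted p = 0.253). At 1 h it lay at -0.14 ± 0.10.

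Id2, an inhibitor of basic helix-loop-helix transcription factors and a classic BMP target, read 970.0, 1069 and 1083 at 2.5 h, against 1522, 1603 and 2285 at 0 h. These groups did not overlap (-0.76 ± 0.12, adjusted p = 0.277), and the second probe set of Id2 lay at -0.43 ± 0.08. Flrt3, an adhesion protein of axon guidance and synapses, read 1349, 1529 and 1159 at 2.5 h, against 1759, 2089 and 1886 at 0 h (-0.51 ± 0.07, adjusted p = 0.263). It too had no overlap, and its 1 h change was 0.00 ± 0.07. Cplx2, a complexin that regulates vesicle fusion, read 314, 279 and 282 at 2.5 h, against 396, 394 and 382 at 0 h (-0.41 ± 0.06, adjusted p = 0.263). The forkhead gene Foxq1 lay at -0.38 ± 0.06, and its dimmer probe set at -0.12 ± 0.06. Without replicate 3, the changes of Id2 and Flrt3 were -0.61 and -0.41.

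Mgp, an inhibitor of calcification made by vascular and connective tissue cells, had the most negative change of any probe set at 2.5 h and also differed widely between replicates. It read 1503, 624 and 189 at 2.5 h, against 3184, 1433 and 236 at 0 h, in replicates 1, 2 and 3 (-0.85 ± 0.14, adjusted p = 0.307). The pairs gave -1.07, -1.18 and -0.30, and without replicate 3, where the level was lowest throughout, the change was -1.13 and was called (limma adjusted p = 0.0193, the spread then resting on 2 arrays per time). In MEF2-VP16-ER neurons Mgp was again lowest in replicate 3, at 235 and highest in replicate 1, at 3573, at 0 h. Over the 15 fibroblast and meningeal markers measured, Mgp included, the median change in control neurons was 0.00, and Col1a2 lay at 0.17 ± 0.06.

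On the positive side at 2.5 h, 4 of the 6 genes with the smallest p belong to sterol synthesis or transport. Stard4, which carries cholesterol between membranes, read 167, 217 and 412 at 0 h, 168, 260.1 and 537 at 1 h, and 294, 291 and 593 at 2.5 h. Its change was 0.55 ± 0.11 (95% interval 0.31 to 0.80, limma adjusted p = 0.484), positive in each pair although the times overlapped across replicates. The other 2 probe sets of Stard4, both dimmer, lay at -0.01 ± 0.06 and 0.20 ± 0.12. Sc5d, a desaturase late in cholesterol synthesis, read 2803, 2669 and 4127 at 2.5 h, against 1859, 2103 and 3377 at 0 h (0.41 ± 0.07), and its other probe sets lay at 0.41 ± 0.07 and 0.11 ± 0.11. Mvd, an enzyme of the mevalonate pathway, lay at 0.41 ± 0.08 and Nsdhl, a sterol dehydrogenase, at 0.30 ± 0.06. The remaining genes were Tmbim1, a membrane protein gene of the BAX inhibitor family, at 0.45 ± 0.07 and Slc16a6 at 0.37 ± 0.07.

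Over the 20 measured genes of cholesterol synthesis and other SREBP targets, 19 were positive at 2.5 h, and the median was 0.20, against 0.00 over all genes, of which 50.7% were positive. At unadjusted p under 0.05, 10 were higher (background 2.46%) and 0 were lower (background 2.27%). In 3 of 3 pairs, 13 were higher (background 11.0%) and 0 were lower (background 11.2%), and no member was called. Besides those above, Lss (0.26), Dhcr7 (0.24), Mvk (0.22), Msmo1 (0.20) and Fdft1 (0.18), all enzymes of the pathway, and Hsd17b7 (0.29) were among the 10. Insig1, which holds SREBP back when sterol is plentiful, lay at 0.17 ± 0.10, and Ebp, a sterol isomerase, at -0.11. The median was 0.03 at 1 h. Per pair the 2.5 h medians were 0.29 and 0.22 in replicates 1 and 2 and 0.12 in replicate 3, where these genes were 0.69 higher over the 3 times, and without replicate 3 the fitted median was 0.26. The list thus also differed between replicates. Its members share a regulator and are not independent observations.

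**Figure D3:**
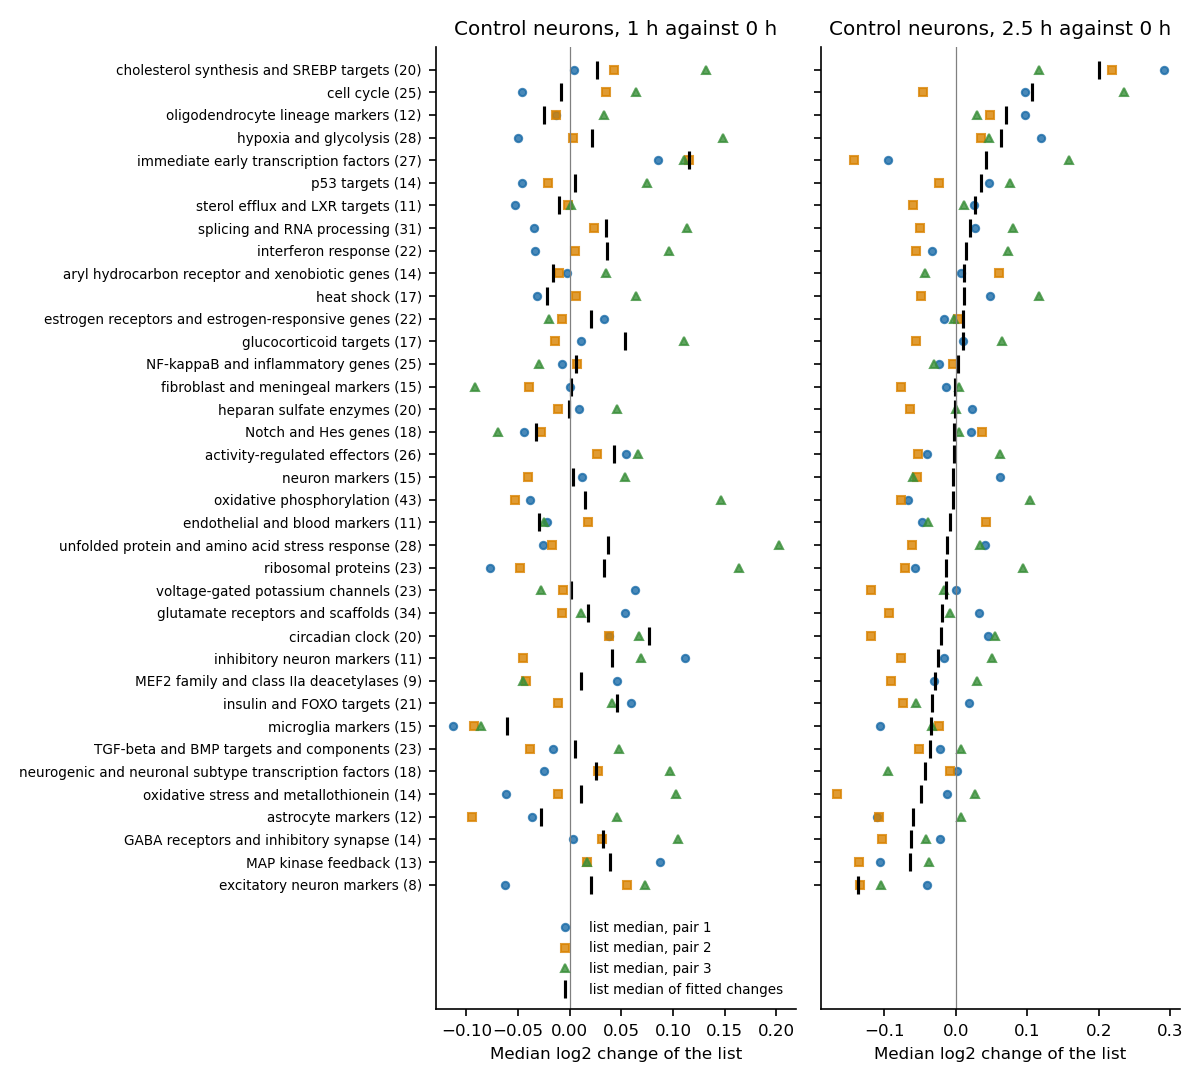
Median log2 change of 37 gene lists (rows, with the number of genes measured) in control neurons at 1 h (left) and 2.5 h (right) against 0 h, as the median of the fitted changes (black bars) and within the replicate pairs (coloured points). Sterol genes lead at 2.5 h with 3 positive pairs, immediate early genes lead at 1 h with 3 positive pairs, and for many other lists the pairs fall on both sides of 0.

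Several activity-linked genes and feedback regulators, named by their small p, had negative values at 2.5 h, without a call. Dusp6, a phosphatase that shuts off ERK, lay at -0.38 ± 0.07 (limma adjusted p = 0.368), and its other probe sets at -0.46 ± 0.08 and -0.28 ± 0.11. Nr4a2, a nuclear receptor gene, lay at -0.46 ± 0.09, the second probe set at -0.32 ± 0.07, and the Kruppel-like gene Klf6 at -0.32 ± 0.08. Bdnf, the neurotrophin gene, read 509, 417 and 269.5 at 2.5 h, against 624, 697 and 301 at 0 h (-0.39 ± 0.10), and -0.07 ± 0.06 on its second probe set. Kcna4, a potassium channel gene, lay at -0.40 ± 0.07.

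By list, the 26 activity-regulated effectors had 3 members higher and 6 lower at unadjusted p under 0.05, the 13 MAP kinase feedback genes 0 and 3, the 23 TGF-beta and BMP genes 1 and 5, and the 21 insulin and FOXO targets 4 and 6. Over all genes the shares were 2.46% higher and 2.27% lower. The effectors were 13 positive and 13 negative, and the feedback genes 4 and 9. Medians of these lists lay between -0.06 and 0.00. Within the last list Sesn1 (0.35) and Ccng2 (0.19), both known to be induced by FOXO factors, were on the positive side, and Klf15 (-0.30), Foxo1 (-0.30) and Txnip (-0.36), a thioredoxin inhibitor that follows glucose, on the negative side. Of 25 cell cycle genes, 23 were positive (median 0.11), and 5 were higher at unadjusted p under 0.05, with Kif11, a mitotic motor, at 0.38 ± 0.08. The pairs disagreed for this list, at 0.10, -0.05 and 0.23, and a second probe set of Kif11 lay at -0.02 ± 0.09.

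For the ligand itself the nearest readout was the list of estrogen receptors and estrogen-responsive genes. Its 22 measured members had medians of 0.02 at 1 h and 0.01 at 2.5 h, with 0 higher and 1 lower at unadjusted p under 0.05 each time: Greb1 at 1 h (-0.21 ± 0.08) and Ccnd1, a cyclin gene, at 2.5 h (-0.26 ± 0.10). Esr1, the estrogen receptor alpha gene, lay at -0.14 ± 0.08 and 0.03 ± 0.08. Of 14 aryl hydrocarbon receptor and xenobiotic genes, 0 and 1 were past that level. The background was 1.99% of genes higher and 1.67% lower at 1 h, and 2.46% and 2.27% at 2.5 h. Fkbp5, a glucocorticoid target, lay at -0.07 ± 0.08 at 1 h and 0.12 ± 0.08 at 2.5 h, and the clock gene Per1 at 0.05 ± 0.10 and 0.10 ± 0.10.

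Lists of housekeeping genes and neuron markers had medians near 0, while some glial lists had more members past the threshold than the background. Of 23 ribosomal protein, 43 oxidative phosphorylation and 15 neuron marker genes, 0 were past unadjusted p of 0.05 at 1 h and 0 at 2.5 h, and their medians lay between -0.01 and 0.03. Of the 15 neuron markers, all changes at 2.5 h were between -0.08 and 0.08. Of 12 astrocyte markers, 10 were negative and 3 were lower at 2.5 h at unadjusted p under 0.05 (background 2.27%): Slc1a2, whose probe set was dim, Vim and Gja1 (-0.25, -0.19 and -0.16). Of 15 microglia markers, 3 were lower at 1 h (background 1.67%) and 4 at 2.5 h (background 2.27%), led by the complement gene C1qa (-0.33 ± 0.10 and -0.36 ± 0.10). C1qa read 334, 221 and 124 at 0 h, 238, 167 and 110.5 at 1 h, and 222, 146 and 127 at 2.5 h, so replicate 3 had little of it at any time. The remaining 8 lists of stress, immune, clock and efflux genes, such as heat shock (median 0.01 at 2.5 h), NF-kappaB (0.00) and interferon response (0.01), had at most 2 members in either direction at that level at 2.5 h.

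Lists of neuronal function gave a few small p values at 2.5 h. The background at unadjusted p under 0.05 was 2.46% of genes higher and 2.27% lower. Of 34 glutamate receptor and scaffold genes, 0 were higher and 2 lower at unadjusted p under 0.05, the NMDA receptor subunit genes Grin2b (-0.42 ± 0.15) and Grin2c (-0.21 ± 0.06). Of 8 excitatory neuron markers, 1 was on each side at that level: Prox1, a transcription factor of dentate granule cells, lay at 0.21 ± 0.06, and Grin2b is also in this list. The list median was -0.14, with 6 members negative and 2 positive, and the pair medians were -0.04, -0.13 and -0.10. In 3 of 3 pairs, 5 were lower (background 11.2%) and 1 was higher (background 11.0%). Of 20 heparan sulfate enzymes, the family of Hs3st1, 2 were lower, and apart from Hs3st1 that was Ext1 (-0.16 ± 0.07), while the list median was 0.00. Of 28 hypoxia and glycolysis genes, 3 were higher and 0 lower, the glycolytic regulators Pfkl (0.28 ± 0.08) and Pfkfb4 (0.20 ± 0.06) and the collagen hydroxylase gene P4ha1 (0.20 ± 0.08). At 1 h, 3 of 28 genes of the unfolded protein and amino acid stress response were higher (background 1.99%). They were Cebpb, Trib3 and Dnajc3, between 0.17 and 0.20. The pair medians of this list were -0.03, -0.02 and 0.20 in replicates 1, 2 and 3.

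Between 1 h and 2.5 h more probe sets had an unadjusted p under 0.05 on the negative side, 944 against 508. Both sides together stayed below what that threshold alone would give if nothing had changed. That comparison is of the total and does not hold for the negative side taken alone. On that side Mgp (-0.88 ± 0.14), Hs3st1 (-0.66 ± 0.10), the chemokine gene Cxcl12 (-0.61 ± 0.09), the neuropeptide gene Adcyap1 (-0.55 ± 0.07), Flrt3 (-0.50 ± 0.07) and Kcna4 (-0.49 ± 0.07) had the smallest p, with adjusted p of 0.250 to 0.284. In the fit of all 18 arrays Cxcl12, Hs3st1 and Adcyap1 passed (adjusted p = 0.0469 each). Cxcl12 read 1193, 1072 and 671 at 2.5 h, against 1705, 1580.5 and 1163 at 1 h. On the positive side stood the lipid droplet gene Pnpla3 (0.37 ± 0.06), the phosphatase genes Pdp2 (0.34 ± 0.07) and Ptpn12 (0.32 ± 0.07), a second probe set of Sc5d (0.33 ± 0.07), Nsdhl (0.29 ± 0.06) and the kinase gene Prkcq (0.27 ± 0.06).

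A pair of probe sets without a gene name had the smallest p and the largest positive change at 2.5 h. One had the smallest p of all (0.61 ± 0.06, adjusted p = 0.0883) and read 558, 661 and 1181 at 2.5 h, against 332, 431 and 818 at 0 h. The second had the largest change (1.03 ± 0.14, adjusted p = 0.247) and read 391, 496 and 4197 at 2.5 h, against 183, 190.5 and 2493 at 0 h. Replicate 3 was highest for both at each of these times.

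The neurons with MEF2-VP16-ER served to show what the same model calls when the fusion can bind DNA. In those 9 arrays limma called 471 probe sets at 2.5 h (1.52%; 280 higher, 191 lower) and 35 at 1 h (0.113%; 31 higher, 4 lower), and 340 and 89 had a change over 0.5 in size. The difference of the changes, MEF2-VP16-ER minus control, was called for 291 probe sets at 2.5 h (0.937%) and 9 at 1 h (0.0290%). Without the replicate block these were 55 and 1.

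Some of the genes that lay low in control neurons at 2.5 h were also low with MEF2-VP16-ER. Id2 fell in MEF2-VP16-ER neurons (-0.94 ± 0.10, adjusted p = 0.00281) and lay at -0.76 in control neurons, and the difference was -0.18 ± 0.17 (adjusted p = 0.900). Flrt3 fell in MEF2-VP16-ER neurons (-0.38 ± 0.06, adjusted p = 0.0184) and lay at -0.51 in control neurons, with a difference of 0.13 ± 0.11 (adjusted p = 0.873). These differences do not show that the constructs act alike. Hs3st1 went the other way: it read 1576, 1449 and 1642 at 2.5 h, against 504, 502 and 502 at 0 h, in MEF2-VP16-ER neurons, a rise of 1.60 ± 0.08 (adjusted p = 0.000145) beside -0.80 in control neurons, and the difference passed (adjusted p = 4.43e-07).

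For sterol genes the 2.5 h list median was -0.11 with MEF2-VP16-ER, beside 0.20 in control neurons, with no member called in either or for the difference. Stard4 lay at -0.07 ± 0.13 with MEF2-VP16-ER, beside 0.55 ± 0.11 in control neurons, with a difference of -0.62 ± 0.18 (adjusted p = 0.197). Immediate early genes at 1 h had medians of 0.10 with MEF2-VP16-ER and 0.12 in control neurons. Of the 27, 7 were called higher with MEF2-VP16-ER and 0 in control neurons, and the difference was called for 1. Over all 31042 probe sets, 31 were called higher with MEF2-VP16-ER and 0 in control neurons, and the difference was called for 9. Fos rose in MEF2-VP16-ER neurons, by 1.84 ± 0.18 (adjusted p = 0.0137), beside 1.17 ± 0.32 in control neurons, and the difference of 0.66 ± 0.48 did not pass (adjusted p = 0.694). Ccn1 rose by 1.12 ± 0.14 with MEF2-VP16-ER (adjusted p = 0.0452), beside 0.46 in control neurons (adjusted p of the difference 0.502).

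**Figure D4:**
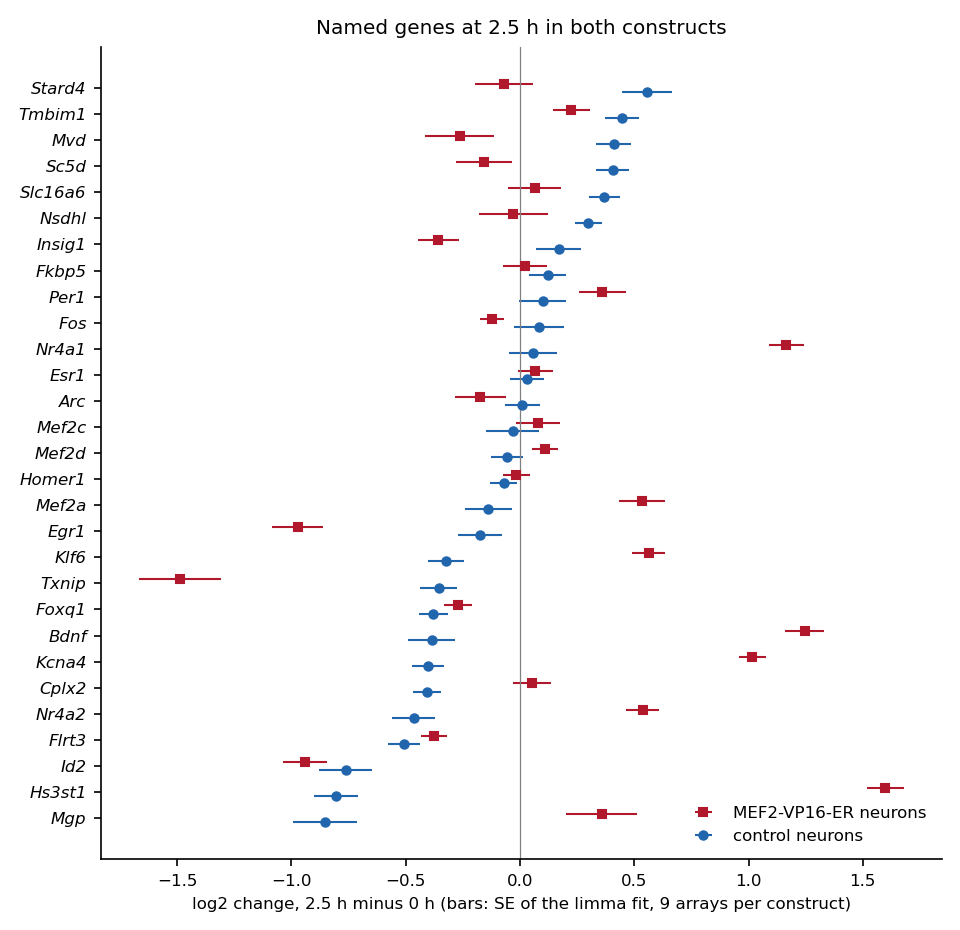
Change at 2.5 h against 0 h (horizontal axis, log2 units, bars showing the SE of the limma fit of 9 arrays per construct) of named genes in MEF2-VP16-ER neurons (red squares, upper of each row) and control neurons (blue circles, lower). Id2 and Flrt3 lie left of 0 for both constructs, Hs3st1, Bdnf and Kcna4 lie on opposite sides, and Fos is shown by its dim probe set.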

How the data were processed

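RNA was labelled and hybridised to Affymetrix arrays, per the labels' protocols, and the deposited table holds 1 intensity per probe set and array on a linear scale. How the authors normalized them is unstated: not given in the sources used here, and none was added. Values entered as log2(intensity + 16). The 57 array controls were dropped, leaving 31042 probe sets for every test: 20826 carried 1 gene symbol, 436 several and 9780 none, for 14217 genes. No detection calls were used here.

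The 9 control arrays were fitted in limma (lmFit, eBayes) with time and replicate number as factors and Benjamini-Hochberg adjustment within each contrast (threshold 0.05). The residual degrees of freedom were 4 (prior 5.69). The residual SD had a median of 0.08. The same model was fitted to the 9 MEF2-VP16-ER arrays, and differences between constructs came from all 18 arrays in 6 groups with the block. The number of arrays limits the precision.

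Replicate numbers pair the control arrays: residuals of all 9 same-number pairs correlated at 0.36 to 0.73 (other pairs, median -0.44). In MEF2-VP16-ER arrays the lowest of 9 was 0.07, so differences between constructs are also given without the block. Whether replicates were separate cultures is known only from the label of biological replicate.

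The 37 gene lists (719 of 824 entries measured) used the brightest probe set per gene and are described by counts and medians. Members, lists and tests were chosen with earlier results of these data known. The rule named the 6 genes with the smallest p per direction and contrast (none being called), 2 per list, and 16 set genes, of which Hmgcs1 was not analysed here. A planned search of promoters of called genes was not run, since no gene was called. The steps were tested on simulated data. How often changes of the sizes seen in control neurons were recovered there is not reported. The software was limma 3.58.1 in R 4.3.3, with figures from matplotlib 3.10.9 in Python 3.11.15.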

Additional observations from a re-analysis of the deposited data

Results flagged for a closer look

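Among the named genes, the change at 2.5 h differed between the constructs for 10. The limma test was of the difference itself (MEF2-VP16-ER minus control, replicate number as block), which was called for 291 of 31042 probe sets. Several of the 10 had been named by a small p in the control arrays, which also enter the difference. Of the 10, Hs3st1 differed by 2.40 ± 0.13 (adjusted p = 4.43e-07), with 1.60 in MEF2-VP16-ER and -0.80 in control neurons. Bdnf differed by 1.63 ± 0.17 (adjusted p = 0.000131; 1.25 and -0.39), Kcna4 by 1.42 ± 0.12 (adjusted p = 1.75e-05; 1.02 and -0.40) and Nr4a1 by 1.11 ± 0.15 (adjusted p = 0.00105; 1.17 and 0.06). Nr4a2 differed by 1.00 ± 0.13 (adjusted p = 0.00078), Klf6 by 0.89 ± 0.12 (adjusted p = 0.00105), Mef2a by 0.67 ± 0.15 (adjusted p = 0.0470) and Ext1, a heparan sulfate polymerase gene, by 0.61 ± 0.09 (adjusted p = 0.00315).

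Txnip differed by -1.13 ± 0.22 (adjusted p = 0.0193; -1.49 in MEF2-VP16-ER and -0.36 in control neurons) and Egr1 by -0.80 ± 0.17 (adjusted p = 0.0389; -0.97 and -0.18). At 1 h Hs3st1 differed by 1.16 ± 0.13 (adjusted p = 0.00248; 1.02 and -0.14). Without the replicate block only Hs3st1 (adjusted p = 4.01e-06), Kcna4 (0.0149) and Nr4a1 (0.0299) of the 10 passed at 2.5 h, and Hs3st1 did not pass at 1 h (0.0535).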

How the results depend on the processing

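In control neurons the count of 0 probe sets at 1 h against 0 h was 0 under every alternative run. At 2.5 h against 0 h it was 1 with all 18 arrays and the replicate block, 1 with 1 probe set per gene, 3 among probe sets above the median level and 4 with eBayes trend and robust. Leaving out single arrays or replicate numbers gave 0 to 2 (1 without replicate 3, 2 without its 2.5 h array). It was 0 under no replicate block, a random block, quantile normalization, median centring and pseudocounts of 1 and 64. At 2.5 h against 1 h it was 3 with all 18 arrays, and 0 to 1 without single arrays or replicates. The calls were those of Hs3st1 (adjusted p = 0.0130 to 0.0328 under 4 settings at 2.5 h), Flrt3 (0.0394, trend and robust), Cxcl12, Adcyap1, Mgp and the 2 unnamed probe sets. Mgp was called only without replicate 3 (-1.13) or without its 2.5 h array (-1.09, adjusted p = 0.0075), and for 2.5 h against 1 h under the same settings (-1.07 and -1.11). The 291 differences between constructs at 2.5 h became 55 with no replicate block, and 91 to 118 without a replicate. The 9 at 1 h became 1 with no replicate block, 5 with a pseudocount of 64 and 17 with 1 probe set per gene, and 0 to 5 without a replicate. The cause was not tested beyond the fewer arrays or tests. All 18 arrays without the block, added after the data were seen, gave 0 in control neurons. Of 198 named values 20 changed sign under some alternative, none of them called, and 33 of 74 list medians moved by more than their spread. The immediate early median at 1 h moved in 10 of 22 settings, the most of any list, and ranged from 0.05 to 0.14. The sterol median at 2.5 h moved in 1 of 22 and ranged from 0.11 to 0.28.

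No detection calls were used here, so how far dim probe sets (Thrsp, Ccn1, Fosb) lie above background is not known. Only 3 arrays per time and 4 residual degrees of freedom stand behind each change.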
